A study of Rattus norvegicus with 10 samples.

Results

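Of the 20826 probe sets with 1 gene symbol, among 31042 measured in FGF2-treated rat lens explants, 105 were high early and low late: above their starting level at 2 and 4 hr and below it at 12 and 24 hr. They stand for 92 genes, of the 14217 that those 20826 probe sets represent. Members were chosen by the measured values themselves. The mean of the 2 and 4 hr arrays had to lie at least 0.5 above the mean of the 0 hr arrays on the log2 scale, where 1 unit is a 2-fold difference, and the mean of the 12 and 24 hr arrays at least 0.5 below it. Their early rise and late fall are therefore described here without a test, and 2 genes were left out by name. The members were led by the transcription factor gene Klf5, the ceruloplasmin gene Cp, the intermediate filament gene Des, and the crystallin gene Crygs.

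The explants are sheets of lens epithelium taken from 3-day-old rats, 6 explants per assay, and all of them first spent a night in FGF2 at 5 ng/mL. Explants of the 0 hr time point were collected then, and the others after 2, 4, 12, or 24 hr in FGF2 at 100 ng/mL. Each time point has 2 Affymetrix arrays of separate cultures, so 10 arrays in all. The 0 hr explants differ from the others both in dose and in hours, which cannot be told apart. Strain and sex are not given in the sources used here, and explants were pooled within an assay.

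Lens epithelial cells divide at the low dose of FGF2 and begin to form fiber cells at the high dose. FGF receptors signal through the ERK kinases, which induce a first wave of genes within hours, and many of those transcripts are short-lived. Fiber formation follows with cell cycle exit, elongation, and crystallin accumulation, while genes typical of the epithelium are turned down.

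All values are log2 intensity per array, and each pair of values for a time point gives replicate 1 and replicate 2. The early means lay 0.50 to 3.17 above 0 hr (median 0.72), and the late means lay 0.50 to 2.34 below it (range −2.34 to −0.50, median −0.75). All 4 early arrays stood above both 0 hr arrays in 94 of the 105 probe sets (19.4% of all probe sets did), and all 4 late arrays stood below both in 93 (21.7% of all). Both held in 85 probe sets, against 2.53% of all, and these shares follow from the choice of members. At least a 2-fold difference was reached in the early direction by 36 probe sets and in the late direction by 27. It was reached in both by 12 probe sets of 9 genes.

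**Figure D1:**
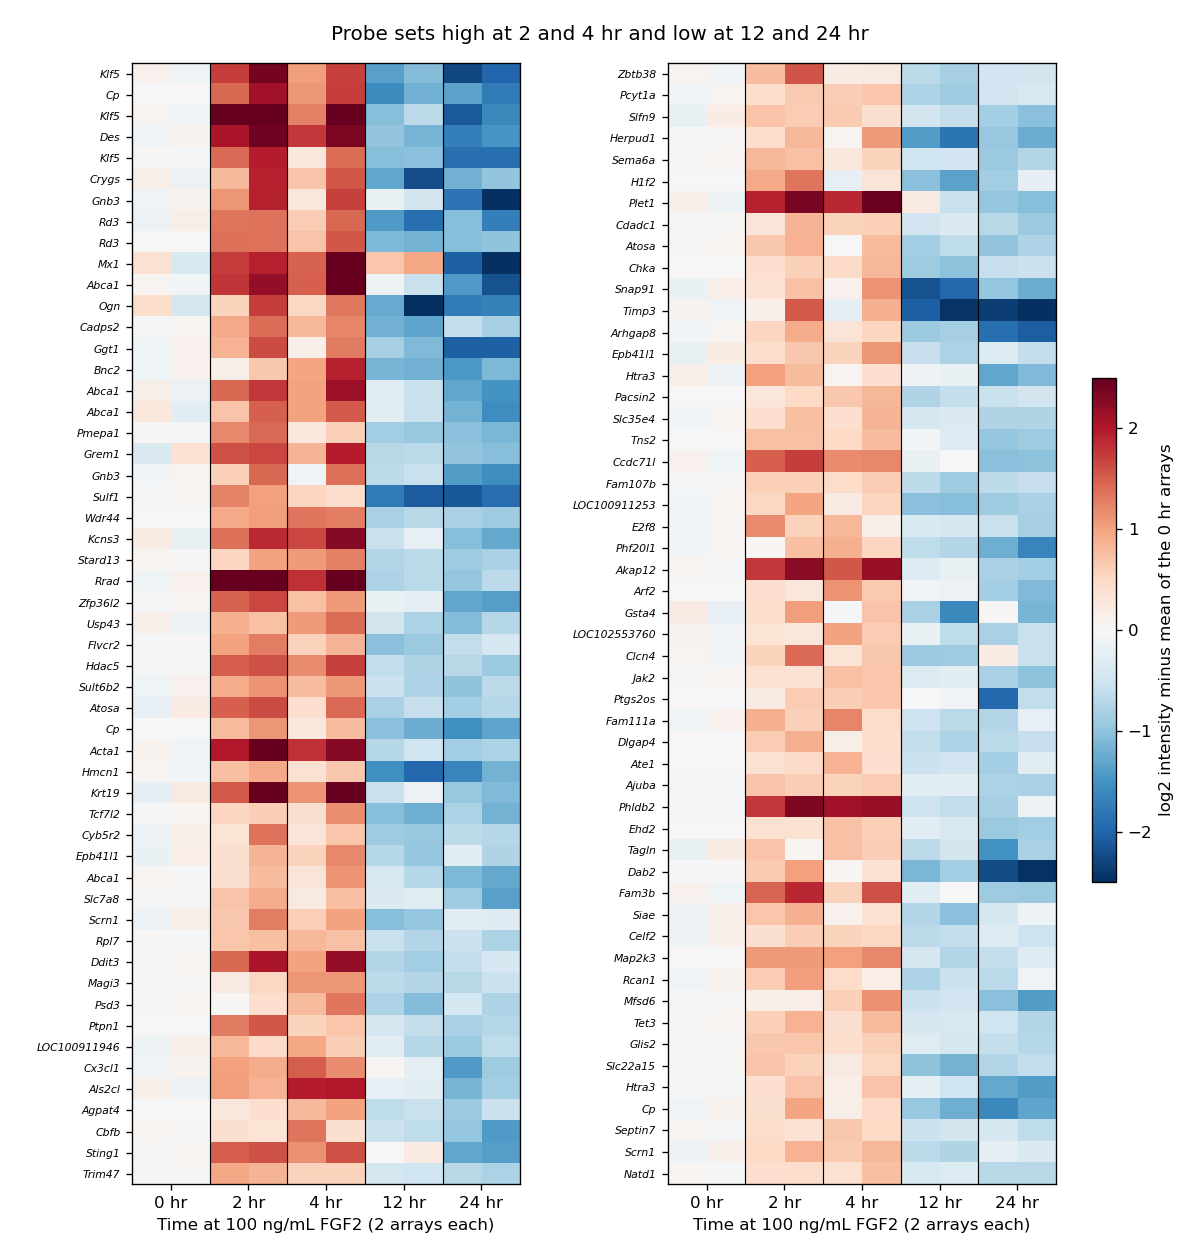
Log2 intensity minus the mean of the 0 hr arrays (color) for the 105 probe sets (rows, ordered by the lower of the early rise and the late fall, continued in the right panel) on the 10 arrays (columns, in order of hours with replicate 1 left of replicate 2). The 2 and 4 hr columns are mostly red and the 12 and 24 hr columns mostly blue because members were chosen by the means of these columns. Single arrays can differ, as for H1f2 at 4 hr and Mx1 at 12 hr. The shade at 12 hr differs between genes, and is pale for Sting1 and Arf2 and dark for Timp3 and Sulf1.

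The timing inside each phase was not part of the choice. The higher of the early means was at 2 hr in 62 probe sets and at 4 hr in 43. The lower of the late means was at 12 hr in 35 and at 24 hr in 70. At 12 hr, 34 probe sets still lay within 0.5 of their 0 hr mean, and the means of Mx1 and Sting1 were above it. Members were spread over 21 chromosomes. Their genes spanned a median of 42374 bases on the GRCr8 assembly, against 22338 bases for all genes on the array, and the median 0 hr intensity was 8.10, against 6.64 over all probe sets.

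Klf5, a zinc finger transcription factor of proliferating epithelia, had the largest smaller margin of all members. It read 9.30 and 9.08 at 0 hr, 10.92 and 11.58 at 2 hr, 10.23 and 10.89 at 4 hr, 7.82 and 8.09 at 12 hr, and 6.92 and 7.20 at 24 hr. No early array overlapped a 0 hr array and no late array did. Its mean lay 1.72 above 0 hr early and 1.68 below it late (−1.68). The other member probe sets of Klf5 gave early means of 2.36 and 1.26 above 0 hr, and late means of −1.36 and −1.47. A further Klf5 probe set, of low intensity, had an early mean of 1.40 but a late mean of only −0.19.

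Other nuclear members include Tcf7l2, a transcription factor through which Wnt signals act, E2f8, a repressor of cell cycle genes, and Bnc2, Glis2, and Zbtb38, all zinc finger proteins. Hdac5 is a histone deacetylase and Tet3 an enzyme that oxidizes methylated cytosine. Hdac5 read 8.98 and 9.02 at 0 hr, 10.52 and 10.59 at 2 hr, 10.18 and 10.71 at 4 hr, 8.39 and 8.24 at 12 hr, and 8.31 and 8.06 at 24 hr. Its early arrays all exceeded both 0 hr arrays by more than 1 log2 unit, and its late arrays all lay below them. H1f2, a linker histone gene, read 11.21 and 11.20 at 0 hr, 12.15 and 12.53 at 2 hr, 10.99 and 11.52 at 4 hr, 10.16 and 9.86 at 12 hr, and 10.34 and 10.95 at 24 hr. At 4 hr its replicate 1 array was already below the 0 hr arrays, so its early mean rests mainly on 2 hr.

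The cytoskeletal members Des, Acta1, and Krt19 had early means above 2, while Tagln was at 0.52. Des, which encodes the muscle intermediate filament desmin, read 10.39 and 10.56 at 0 hr, 12.52 and 12.91 at 2 hr, 12.25 and 12.83 at 4 hr, 9.49 and 9.31 at 12 hr, and 8.76 and 9.00 at 24 hr. All early arrays were above and all late arrays below both 0 hr arrays, and the replicates of a time were close beside these differences. Acta1, the skeletal muscle actin gene, read 5.29 and 5.11 at 0 hr, 7.20 and 7.84 at 2 hr, 7.03 and 7.47 at 4 hr, 4.48 and 4.70 at 12 hr, and 4.33 and 4.40 at 24 hr. All arrays kept to the pattern, with the wider distance on the early side. Krt19, an epithelial keratin gene, read 5.60 and 6.04 at 0 hr, 7.35 and 8.96 at 2 hr, 6.94 and 9.17 at 4 hr, 5.26 and 5.68 at 12 hr, and 4.88 and 4.71 at 24 hr. Here the replicates differed by 1.62 at 2 hr and 2.23 at 4 hr, so the size of its early mean (2.29) depends on the array. Tagln, encoding the actin-binding protein transgelin, read 11.32 and 11.71 at 0 hr, 12.21 and 11.57 at 2 hr, 12.24 and 12.12 at 4 hr, 10.85 and 11.06 at 12 hr, and 9.996 and 10.70 at 24 hr, and its replicate 2 array at 2 hr lay between the 0 hr arrays.

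Acta1 and Tagln belong to a list of actin cytoskeleton genes and targets of the serum response factor (SRF), of which 19 other genes were measured. Of these, 9 were called up-regulated at 2 hr and 10 at 4 hr (limma, adjusted p under 0.05, as for all calls here), where 8.61 and 11.9% of all probe sets were. None was called down-regulated at 2 hr and 1 was at 4 hr (8.88 and 11.9% of all). Their median log2 difference was 0.31 at 2 hr and 0.38 at 4 hr. Vcl (vinculin), Zyx (zyxin), and Myh9 (nonmuscle myosin) rose by 1.36 ± 0.14, 1.27 ± 0.15, and 0.87 ± 0.08 at 4 hr (log2 difference ± SE, as for all list genes). At 12 hr none was called up-regulated and 3 were called down-regulated, and at 24 hr the counts were 0 and 4, where 8.94 and 9.29% of all probe sets were called up-regulated and 10.02 and 10.9% down-regulated. Myl9, Tpm1, and Ankrd1 fell at both late times. Vcl and Zyx were at −0.04 and 0.46 at 12 hr and did not pass the test there. The member Acta1, which was chosen for its late fall, was at −0.61. Over all probe sets the median difference from 0 hr was between −0.021 and 0.026 at every time, which applies to all list medians here. Likewise, the shares of all probe sets called at each time apply to the counts of all lists and cell markers here.

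Rrad had the largest early value of all members. It encodes a Ras-related GTPase that holds back calcium channels of muscle. It read 5.89 and 6.11 at 0 hr, 9.25 and 10.61 at 2 hr, 7.82 and 9.01 at 4 hr, 5.22 and 5.32 at 12 hr, and 5.03 and 5.34 at 24 hr. The late arrays were all below both 0 hr arrays, and the early difference (3.17) exceeded the late one (−0.77) in size. Plet1, which encodes a surface protein of epithelia, read 6.18 and 5.94 at 0 hr, 7.98 and 8.42 at 2 hr, 7.95 and 8.53 at 4 hr, 6.27 and 5.50 at 12 hr, and 5.09 and 5.00 at 24 hr, and its replicate 1 array at 12 hr was above both 0 hr arrays. Akap12 and Phldb2, both of which encode scaffold proteins at the cell cortex, had early means of 1.94 and 2.10 above 0 hr.

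The promoters of these genes are shown because they hold known motifs of signal-responsive genes within the 250 bases before and 50 after the annotated start. They come from RefSeq on GRCr8, which covered 75 of the 92 member genes, and capitals mark the motifs that were found. Acta1 holds a CArG box, the binding motif of SRF, and a TATA box. Rcan1, an inhibitor of the phosphatase calcineurin, holds a cAMP response element (CRE), an AP-1 site, and overlapping TATA boxes. Crygs holds an AP-1 site and a TATA box. Abca1 holds an E-box and a TATA box.
Acta1, chr19:68784145-68784444, strand -: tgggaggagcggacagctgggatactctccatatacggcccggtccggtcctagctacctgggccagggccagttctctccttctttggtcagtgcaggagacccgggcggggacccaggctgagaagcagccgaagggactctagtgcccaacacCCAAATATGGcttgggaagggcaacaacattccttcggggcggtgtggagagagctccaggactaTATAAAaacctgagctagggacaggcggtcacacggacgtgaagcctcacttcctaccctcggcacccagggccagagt
Rcan1, chr11:45118187-45118486, strand -: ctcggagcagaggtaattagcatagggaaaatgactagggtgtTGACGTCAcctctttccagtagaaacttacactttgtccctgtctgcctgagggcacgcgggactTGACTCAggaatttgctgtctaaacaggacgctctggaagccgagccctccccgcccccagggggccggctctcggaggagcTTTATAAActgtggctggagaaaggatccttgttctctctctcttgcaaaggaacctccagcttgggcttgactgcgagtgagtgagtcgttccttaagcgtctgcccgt
Crygs, chr11:91711505-91711804, strand +: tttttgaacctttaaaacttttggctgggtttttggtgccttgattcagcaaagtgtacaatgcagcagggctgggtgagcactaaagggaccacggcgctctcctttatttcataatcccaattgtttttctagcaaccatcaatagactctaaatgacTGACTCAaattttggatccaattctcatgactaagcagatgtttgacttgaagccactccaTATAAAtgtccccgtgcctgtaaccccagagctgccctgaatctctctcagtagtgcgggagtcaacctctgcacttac
Abca1, chr5:72596424-72596723, strand -: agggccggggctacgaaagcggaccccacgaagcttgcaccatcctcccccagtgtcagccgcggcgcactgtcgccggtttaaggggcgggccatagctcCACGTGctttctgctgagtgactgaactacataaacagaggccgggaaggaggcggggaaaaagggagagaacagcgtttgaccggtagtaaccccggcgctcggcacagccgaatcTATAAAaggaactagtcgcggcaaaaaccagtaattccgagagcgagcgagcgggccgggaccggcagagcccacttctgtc

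In the Acta1 promoter the CArG box starts at −94 and the TATA box at −29 relative to the start. In Rcan1 the CRE starts at −207 and the AP-1 site at −142, and in Crygs the AP-1 site starts at −90. The search covered both strands and 8 motifs. The CRE was TGACGTCA, the AP-1 site TGACTCA or TGAGTCA, the TATA box TATAAA, the E-box CACGTG, and the Ets site CCGGAAG. The Egr site was GCGTGGGCG or GCGGGGGCG, the CArG box was CC, 6 bases of A or T, and GG, and the NF-kB site was its usual consensus. An AP-1 site stood in 10.7% of the 75 member genes and in 4.21% of the 11700 genes on the array with a promoter. The CArG box stood in 4.0 and 1.48%, the CRE in 4.0 and 2.93%, and the Egr site in 10.7 and 6.05%. The TATA box stood in 14.7 and 9.07% and the E-box in 13.3 and 9.38%. The Ets site (12.0 and 15.4%) and the NF-kB site (8.0 and 10.3%) stood in a smaller share of member genes. Over all 27457 genes with a promoter, on the array or not, the TATA box stood in 15.3% and the Ets site in 9.63%. For the TATA box and the Ets site, the direction of the difference thus depends on the genes compared with. At least 1 of the 8 was found in 56.0% of the member genes and in 46.4% of the array genes. With 3 to 11 member genes behind each share, these are descriptions, and a match does not show that a factor binds there.

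Several members are known from the eye. Crygs encodes γS-crystallin, a structural protein of the lens. It read 9.07 and 8.76 at 0 hr, 9.74 and 10.87 at 2 hr, 9.63 and 10.47 at 4 hr, 7.61 and 6.70 at 12 hr, and 7.71 and 7.93 at 24 hr. All its early arrays were above and all its late arrays below both 0 hr arrays, and the 2 hr replicates differed by 1.13. Among the 21 other lens fiber genes measured, 2, 2, 1, and 2 were called up-regulated from 2 to 24 hr. Called down-regulated were 1, 4, 4, and 1 of them, with medians of −0.25, −0.11, 0.03, and 0.03. Of all probe sets, 8.61 to 11.9% were called up-regulated at these times and 8.88 to 11.9% down-regulated. The summed intensity of this list was lowest on a 2 hr array, at 89160, and highest on a 24 hr array, at 112970.

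Gnb3 encodes a G protein subunit of cone photoreceptors, and Rd3 a photoreceptor protein that restrains guanylate cyclase. Gnb3 read 7.79 and 7.95 at 0 hr, 8.99 and 9.79 at 2 hr, 8.16 and 9.59 at 4 hr, 7.70 and 7.42 at 12 hr, and 6.03 and 5.13 at 24 hr. Its replicates differed by 1.43 at 4 hr, yet all early arrays were above and all late arrays below the 0 hr arrays. On its second member probe set, replicate 1 at 4 hr (9.02) was below both 0 hr arrays (9.06 and 9.18). Rd3 read 6.43 and 6.73 at 0 hr, 7.92 and 7.94 at 2 hr, 7.21 and 8.02 at 4 hr, 5.17 and 4.69 at 12 hr, and 5.52 and 4.88 at 24 hr, and its second member probe set had the same course, with a late mean of −1.09. Photoreceptor and other neural retina markers (8 measured) summed to 221 to 241 on all 10 arrays, and 1 of them was called at any time. The part of retinal cells in the values of Gnb3 and Rd3 was not tested beyond this. Cadps2 and Snap91, which act in vesicle release and recycling, are members too, with late means of −0.98 and −1.59.

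Among transport and metabolic genes, Cp encodes ceruloplasmin, a copper-carrying ferroxidase. It read 8.11 and 8.10 at 0 hr, 9.53 and 10.21 at 2 hr, 9.21 and 9.83 at 4 hr, 6.53 and 6.90 at 12 hr, and 6.77 and 6.35 at 24 hr. No early or late array overlapped the 0 hr arrays, and 2 further member probe sets lay 0.73 and 0.50 above 0 hr early with −1.29 and −1.28 late. Abca1, the cholesterol exporter, had 4 member probe sets, the most of any gene. The one with the largest margin read 7.31 and 7.15 at 0 hr, 9.02 and 9.43 at 2 hr, 8.73 and 9.96 at 4 hr, 7.09 and 6.68 at 12 hr, and 5.80 and 5.04 at 24 hr. At 12 hr its arrays were just below those of 0 hr, and its lowest values were at 24 hr. The other Abca1 probe sets had early means of 1.59, 1.18, and 0.66 and late means of −0.91, −0.90, and −0.88.

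Of 17 other genes of sterol efflux and lipid handling, 5 were called up-regulated at 2 hr and 5 at 4 hr, and 0 and 1 were called down-regulated. At 12 hr the counts were 2 up and 0 down, and at 24 hr 2 up and 1 down. The medians were 0.30, 0.12, 0.37, and 0.28 from 2 to 24 hr. Abcg1, which works beside Abca1 in cholesterol export, and Plin2, a lipid droplet protein, rose at 4 hr by 0.85 ± 0.18 and 0.99 ± 0.13. At 24 hr they were at 0.28 and −0.14 and did not pass the test. Abca1, which was chosen for its late fall, was at −1.40 on its brightest probe set. Other members of this kind are the amino acid carrier Slc7a8, the heme carrier Flvcr2, the chloride transporter Clcn4, and the lipid synthesis enzymes Chka, Pcyt1a, and Agpat4, with early means between 0.58 and 0.93. Kcns3, a modulatory potassium channel subunit, was higher, at 1.80.

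Several members act in or on the extracellular matrix, among them Timp3, Ogn, and Sulf1, whose late differences were the largest of all members. Timp3 encodes an inhibitor of metalloproteinases that is held in the matrix. It read 7.68 and 7.49 at 0 hr, 7.72 and 9.12 at 2 hr, 7.35 and 8.48 at 4 hr, 5.54 and 5.15 at 12 hr, and 5.21 and 5.11 at 24 hr. The late arrays were all far below the 0 hr arrays, whereas at 4 hr replicate 1 was below both and replicate 2 above both. The 3 other Timp3 probe sets were also low late, at −2.49, −2.12, and −1.07, with early means of 0.05, 0.37, and 0.20, all of them under the early threshold. Among 20 other plasminogen activator and metalloproteinase genes, 5, 5, 5, and 3 were called up-regulated at 2, 4, 12, and 24 hr, and 2, 1, 1, and 1 were called down-regulated. Their medians were −0.06, −0.01, 0.18, and 0.18.

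Ogn, a small leucine-rich proteoglycan gene, read 9.24 and 8.36 at 0 hr, 9.36 and 10.53 at 2 hr, 9.31 and 10.12 at 4 hr, 7.53 and 5.61 at 12 hr, and 7.05 and 7.10 at 24 hr. Replicate 1 at 2 and 4 hr was close to the higher 0 hr array, while replicate 2 was clearly above it, so its early mean rests mainly on replicate 2. The 3 other Ogn probe sets were low late, at −2.43, −1.69, and −2.15, but had early means of −0.15, 0.28, and 0.495, all under the early threshold. The early value of Ogn holds for 1 probe set. Sulf1 encodes an enzyme that removes sulfate from heparan sulfate, the cofactor of FGF binding. It read 7.75 and 7.83 at 0 hr, 9.03 and 8.83 at 2 hr, 8.32 and 8.23 at 4 hr, 6.02 and 5.71 at 12 hr, and 5.68 and 5.89 at 24 hr. All arrays kept to the pattern, but another Sulf1 probe set of lower intensity did not, with an early mean of −0.42 and a late mean of −0.90. Htra3, a secreted protease gene, and Hmcn1, which encodes a large matrix protein, had late means of −0.68 and −1.58.

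Signaling members come from several pathways. Cx3cl1 encodes a membrane-bound chemokine and read 8.43 and 8.60 at 0 hr, 9.55 and 9.44 at 2 hr, 10.03 and 9.69 at 4 hr, 8.56 and 8.27 at 12 hr, and 7.10 and 7.62 at 24 hr. Its early arrays were all above the 0 hr arrays, 1 of its 12 hr arrays lay between them, and its 24 hr arrays were below. Of 26 other chemokine and cytokine genes, 7, 7, 5, and 0 were called up-regulated from 2 to 24 hr, and 0, 1, 2, and 2 were called down-regulated. Their medians were 0.13, 0.15, 0.06, and 0.09. Cxcl1 and Ccl20, which attract leukocytes, rose by 4.24 ± 0.26 and 5.24 ± 0.35 at 4 hr. At 24 hr they were at −0.30 and −0.45 and did not pass the test. Cx3cl1, which was chosen for its late fall, was at −1.16.

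Grem1, an antagonist of BMP ligands, read 5.33 and 6.07 at 0 hr, 7.30 and 7.38 at 2 hr, 6.56 and 7.67 at 4 hr, 5.01 and 5.04 at 12 hr, and 4.72 and 4.63 at 24 hr. Its early arrays exceeded both 0 hr arrays although these differed by 0.73. Of 20 other ligands and antagonists of the TGF-beta, BMP, and activin families, 5, 4, 6, and 6 were called up-regulated and 3, 5, 6, and 7 down-regulated from 2 to 24 hr, with medians between −0.12 and 0.09. Ddit3 encodes CHOP, a transcription factor induced by cell stress, and read 7.94 and 8.04 at 0 hr, 9.43 and 10.04 at 2 hr, 9.00 and 10.19 at 4 hr, 7.27 and 7.13 at 12 hr, and 7.40 and 7.57 at 24 hr. Its early arrays were all above and its late arrays all below both 0 hr arrays. Of 19 other genes of the amino acid stress response, 5, 9, 3, and 2 were called up-regulated and 3, 0, 1, and 8 down-regulated, with medians of 0.19, 0.40, 0.04, and −0.34. Trib3, an inhibitor of the kinase Akt, rose by 2.43 ± 0.37 at 4 hr and was at 0.43 at 24 hr, where it did not pass the test.

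No gene of the lists of immediate early genes and of ERK feedback inhibitors was a member. Members were only 92 of 14217 genes, so few would stand in lists of this length. The lists of ribosome biogenesis and of DNA replication and mitosis held none either. Of 27 immediate early genes measured, 20, 16, 10, and 8 were called up-regulated from 2 to 24 hr and 1, 1, 0, and 1 down-regulated, with medians of 1.74, 0.95, 0.44, and 0.28. Fos, a component of AP-1, rose by 1.74 ± 0.18 at 2 hr and was at −0.15 at 24 hr, where it did not pass the test. Egr1 rose by 2.54 ± 0.10 at 2 hr and was still up-regulated at 24 hr, by 0.96 ± 0.10. Of the 15 ERK feedback genes, 9, 9, 10, and 7 were called up-regulated and 1, 1, 0, and 0 down-regulated, with medians of 1.33, 0.86, 0.52, and 0.33. Of 17 genes of NF-kB and its feedback, 12, 14, 8, and 3 were called up-regulated and 1 down-regulated at each time, with medians of 0.72, 1.37, 0.39, and 0.11.

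Mx1 and Sting1 act in antiviral defense, Mx1 as a GTPase and Sting1 as a sensor adaptor of cytosolic DNA. Mx1 read 9.48 and 8.72 at 0 hr, 10.84 and 11.03 at 2 hr, 10.56 and 11.77 at 4 hr, 9.79 and 10.07 at 12 hr, and 7.06 and 5.16 at 24 hr. Its 12 hr arrays were still above both 0 hr arrays, and its 24 hr arrays, which differed from each other by 1.90, were below them. Without the replicate 2 array at 24 hr its late mean would be 0.12 below 0 hr (−0.12) rather than 1.08, so its membership rests on that array. Sting1 read 8.83 and 8.94 at 0 hr, 10.39 and 10.48 at 2 hr, 10.03 and 10.48 at 4 hr, 8.89 and 9.09 at 12 hr, and 7.58 and 7.50 at 24 hr. Its replicates differed most at 4 hr, by 0.44, and only its 24 hr arrays were below both 0 hr arrays. Of the 17 other interferon-stimulated genes, 1, 1, 0, and 0 were called up-regulated from 2 to 24 hr and 4, 4, 6, and 6 down-regulated, with medians of −0.38, −0.42, −0.48, and −0.64. Mx2, the paralog of Mx1, was at 0.23 at 2 hr, where it did not pass the test, and fell by 2.27 ± 0.20 at 24 hr. Gbp2 was the 1 gene called up-regulated early.

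**Figure D2:**
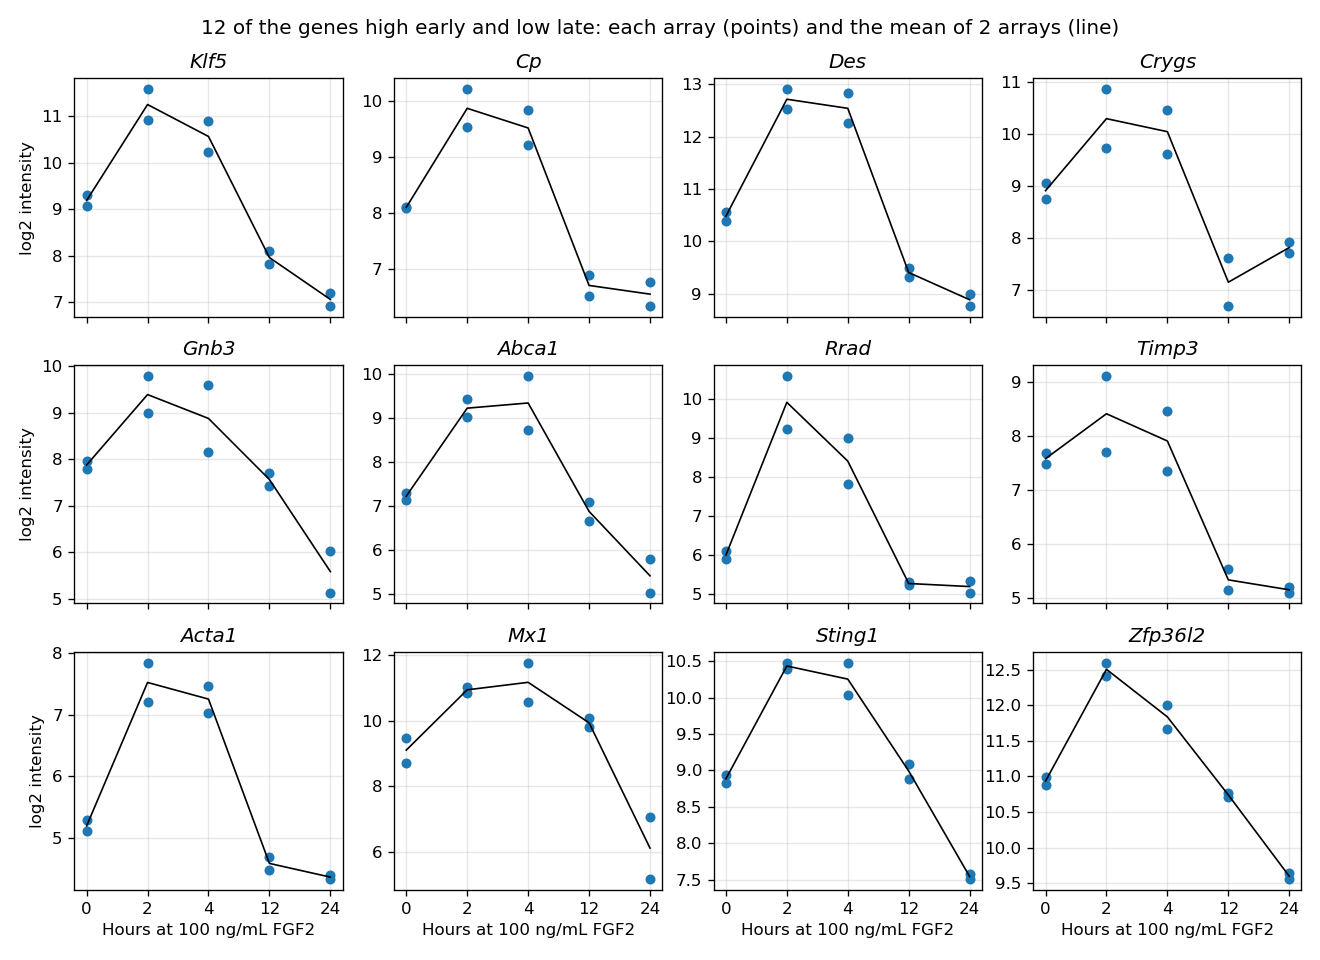
Log2 intensity on each array (points, 2 per time point) and the mean of both (line) against hours in 100 ng/mL FGF2 for 12 members, with hours evenly spaced rather than to scale and a separate vertical range per gene. Rrad is highest at 2 hr, Timp3 and Cp are low by 12 hr, and Mx1, Sting1, and Zfp36l2 are near or above their 0 hr level at 12 hr and low at 24 hr.

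Neither the step from 2 to 4 hr nor that from 12 to 24 hr was used to choose members, and the times of each step share a range of array numbers in the study's array names. They were tested by limma over all 31042 probe sets. Between 2 and 4 hr, 8 of the 105 probe sets were called, against 3.73% of all probe sets (2 higher and 6 lower at 4 hr). Between 12 and 24 hr, 15 were called, against 4.34% of all. All 15 were lower at 24 hr, where 2.12% of all probe sets were called lower. The median difference over the members was −0.13 between 2 and 4 hr and −0.22 between 12 and 24 hr, where 70 of 105 were below 0. Over all probe sets the medians were −0.014 and 0.0037. Members had a higher median intensity than all probe sets. Without the dimmest 1 in 3, 10 of 101 members were called in the early step, against 5.83% of all tested. In the late step 17 were, against 7.28%.

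At 4 hr, Als2cl, a relative of the alsin guanine nucleotide exchange factor, read 8.68 and 8.72 at 4 hr, against 7.77 and 7.59 at 2 hr, a rise of 1.03 ± 0.13 on the log2 scale (SE, limma adjusted p = 0.0056). Magi3, a scaffold protein of cell junctions, read 10.72 and 10.70 at 4 hr, against 9.84 and 10.13 at 2 hr, a rise of 0.73 ± 0.11 on the log2 scale (SE, limma adjusted p = 0.00999). In both genes the arrays of the 2 times did not overlap.

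The 6 members that were lower at 4 than at 2 hr are nuclear, signaling, or matrix genes. Pmepa1, a membrane protein that dampens TGF-beta signaling, read 10.20 and 10.54 at 4 hr, against 11.15 and 11.36 at 2 hr, a difference of −0.89 ± 0.13 on the log2 scale (SE, limma adjusted p = 0.00801). Ptpn1, the tyrosine phosphatase PTP1B, read 8.46 and 8.59 at 4 hr, against 9.20 and 9.44 at 2 hr, a difference of −0.80 ± 0.11 on the log2 scale (SE, limma adjusted p = 0.00752). Zfp36l2 encodes a protein that binds AU-rich mRNAs and speeds their decay. It read 11.67 and 12.00 at 4 hr, against 12.41 and 12.60 at 2 hr, a difference of −0.67 ± 0.12 on the log2 scale (SE, limma adjusted p = 0.0236). Sulf1 differed by −0.65 ± 0.13 on the log2 scale (SE, limma adjusted p = 0.0319), H1f2 by −1.09 ± 0.24 on the log2 scale (SE, limma adjusted p = 0.0446), and Zbtb38 by −0.96 ± 0.21 on the log2 scale (SE, limma adjusted p = 0.0464). In all 6 the arrays of 4 hr lay below those of 2 hr, but the calls of Sulf1, H1f2, Zbtb38, and Zfp36l2 were lost on leaving out either 0 hr array. The Zbtb38 call was also lost with the replicate number as a block (limma adjusted p = 0.061). Dimmer probe sets of Zbtb38 (5.17 and 5.20 at 2 and 4 hr) and Zfp36l2 (5.90 and 5.93) did not fall between these times. Another of Zfp36l2 did (5.41 and 5.07), as did those of Ptpn1 (9.36 and 8.72) and Sulf1 (6.37 and 5.73). With either 0 hr array left out, 4 members were called, and without replicate 2 at 4 hr 18 were. Without replicate 2 at 2 hr, 4 were called, and without either 12 hr array 5. The balance of directions was not stable, since 5 were higher and 2 lower without replicate 1 at 4 hr, 5 higher and 4 lower by the methods' analysis of variance, and 2 higher and 2 lower without either 0 hr array. With only the 2 and 4 hr arrays fitted, none was called. In the fit of all 10 arrays, 35 members had an unadjusted limma p under 0.05, as had 17.1% of all probe sets.

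At 24 hr, Mx1 read 7.06 and 5.16 at 24 hr, against 9.79 and 10.07 at 12 hr, a difference of −3.83 ± 0.58 on the log2 scale (SE, limma adjusted p = 0.00997). Sting1 read 7.58 and 7.50 at 24 hr, against 8.89 and 9.09 at 12 hr, a difference of −1.45 ± 0.15 on the log2 scale (SE, limma adjusted p = 0.00229). Dab2, an endocytic adaptor, read 7.70 and 7.45 at 24 hr, against 8.79 and 9.08 at 12 hr, a difference of −1.36 ± 0.17 on the log2 scale (SE, limma adjusted p = 0.00449). These 3 genes had the largest late steps among the called members, and in none did the arrays of 24 and 12 hr overlap. Larger than the step of Dab2, but not past the test, were those of Gnb3 (−1.98, limma adjusted p = 0.0506) and of the Abca1 probe set with the largest margin (−1.46, limma adjusted p = 0.0737). Zfp36l2 read 9.64 and 9.56 at 24 hr, against 10.76 and 10.72 at 12 hr, a difference of −1.14 ± 0.12 on the log2 scale (SE, limma adjusted p = 0.00308). It was thus called lower in both steps. Arhgap8 read 5.75 and 5.58 at 24 hr, against 6.70 and 6.80 at 12 hr, a difference of −1.08 ± 0.14 on the log2 scale (SE, limma adjusted p = 0.00613). Cx3cl1 differed by −1.06 ± 0.19 on the log2 scale (SE, limma adjusted p = 0.019).

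The other probe sets called between 12 and 24 hr differed by −1.05 to −0.53. They were both probe sets of Htra3 and those of Ccdc71l, Arf2 (a GTPase of vesicle traffic), Als2cl, Tns2 (a tensin of focal adhesions), the kinase gene Jak2, Ehd2 (a protein of caveolae), and Ajuba (a LIM protein of cell junctions). On its member probe set, Als2cl was therefore higher at 4 than at 2 hr and lower at 24 than at 12 hr. A dimmer Als2cl probe set was flat, with means of 5.36, 5.34, 5.42, and 5.41 at 2, 4, 12, and 24 hr. Leaving out a 12 hr array reduced the 15 calls to 5 (replicate 1) and 3 (replicate 2), and leaving out replicate 1 at 24 hr reduced them to 8. Leaving out either 4 hr array raised them to 25. The Mx1 call was lost without either 12 hr array.

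**Figure D3:**
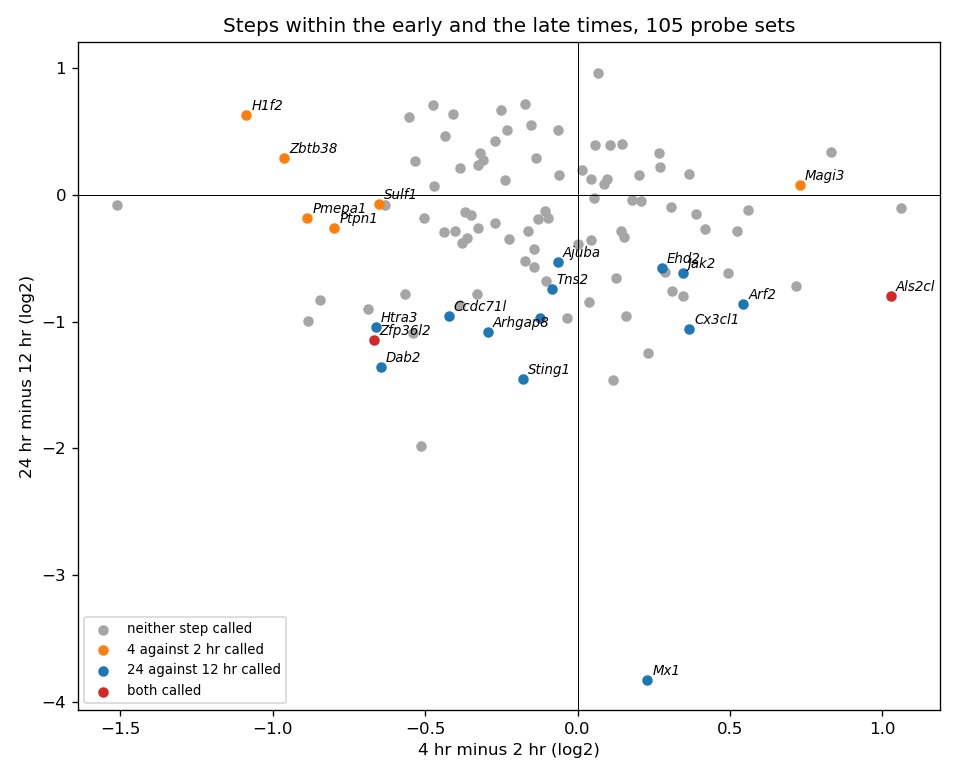
Difference 4 hr minus 2 hr (horizontal) and 24 hr minus 12 hr (vertical), in log2 units, for the 105 probe sets, colored by which step limma called at adjusted p under 0.05. The called late steps all lie below 0, Mx1 stands lowest at −3.83, and Zfp36l2 and Als2cl are called in both steps.

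Classes cut from the same values give a scale for these shares. Of 1137 probe sets with an early rise but no late fall, 7.12% were called lower at 24 than at 12 hr, and of 543 with an early and a late rise, 16.6% were. Of 1101 probe sets with a late fall but no early rise, 4.81% were. The share in the members was 14.3%, so it lay within the range of these classes. Called in either direction between 2 and 4 hr were 14.0, 28.5, and 7.54% of these classes in the same order. Of probe sets with a fall in both phases 15.6% were, and of those with an early fall and a late rise 9.09%. The members, at 7.62%, were near the lowest of these shares. The differences between classes were not tested.

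The replicates of the early times were not alike in the members. Replicate 2 was above replicate 1 in 83 of the 105 probe sets at 2 hr and in 85 at 4 hr, where 45.7 and 50.3% of all probe sets were. At 0, 12, and 24 hr the counts were 63, 40, and 52. The SD of the replicate difference was 0.39 at 2 hr and 0.52 at 4 hr in the members, and 0.29 and 0.30 over all probe sets. Of the probe sets with an early rise but no late fall, replicate 2 was above replicate 1 in 56.2% at 2 hr and in 61.0% at 4 hr, and of those with a late fall but no early rise in 68.3 and 63.3%. Counted on replicate 1 alone 91 probe sets met the thresholds, of which 65 were members, and on replicate 2 alone 150 did, of which 84 were members. Krt19, Gnb3, and Timp3 had wide gaps at 4 hr (2.23, 1.43, and 1.12).

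**Figure D4:**
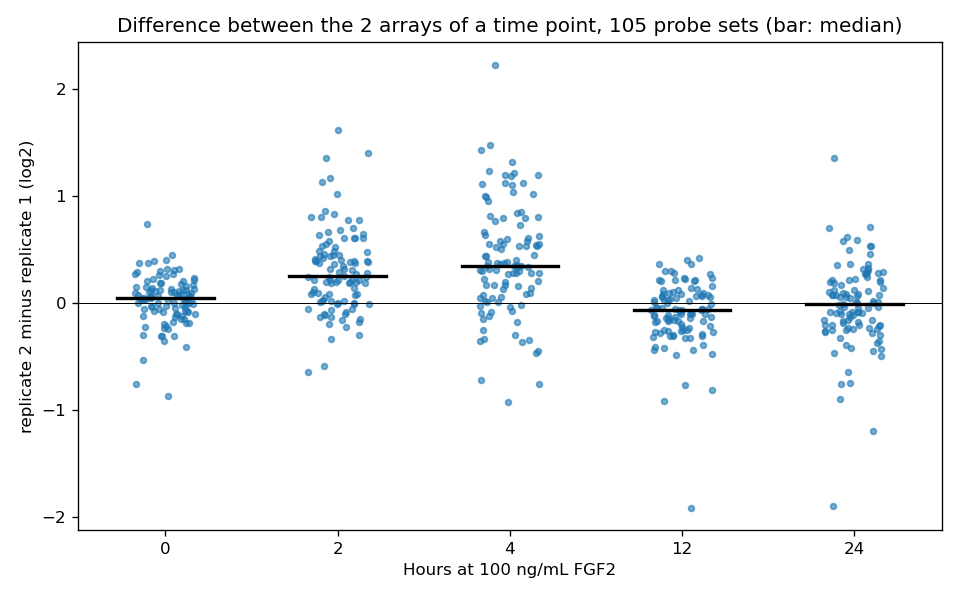
Replicate 2 minus replicate 1 in log2 units (vertical) for each of the 105 probe sets (points, spread sideways at random) at each time (horizontal), with the median as a bar. The median gap was 0.25 at 2 hr and 0.35 at 4 hr, against 0.05, −0.07, and −0.01 at 0, 12, and 24 hr.

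Some array controls moved with the same arrays. The ratio of the 5′ to the 3′ probe set of beta-actin, on the log2 scale, was −1.68 and −2.13 at 2 hr and −1.37 and −2.08 at 4 hr, against −1.12 and −1.21 at 0 hr. It was −1.30 and −1.43 at 12 hr and −1.75 and −1.88 at 24 hr. It was therefore lowest on the replicate 2 arrays of 2 and 4 hr, as was the ratio of GAPDH (−0.27 and −0.30). The hexokinase ratio was not, at −1.12 and −1.26 at 2 hr and −1.34 and −1.31 at 4 hr, and its lowest value, −1.48, was at 12 hr. The 5S rRNA control, in linear intensity, ranged over 183 to 209 at the early times and over 112 to 154 at 0, 12, and 24 hr. In the study's array names, the numbers fall in 3 ranges, one for 0 hr, one for 2 and 4 hr, and one for 12 and 24 hr. A difference from 0 hr and a difference between these ranges cannot be told apart. The part of RNA quality in the members' values was not tested.

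Marker lists of the cells that explants may hold were read on the same arrays. Of 11 lens epithelium markers, 1 was called down-regulated at 2 hr, 3 at 4 hr, and 8 at both 12 and 24 hr, and 1 was called up-regulated at 12 hr. Their summed intensity was 55675 to 55944 at 0 hr, 46662 to 62887 at the early times, and 34285 to 38307 at the late times. In such samples fewer cells of a type and less RNA per cell cannot be told apart. None of 16 macrophage, 12 fibroblast, or 5 erythrocyte markers was called, apart from 1 fibroblast marker that rose at 4 hr. The macrophage sum was 779 to 963 at 0 hr, 864 to 1360 at the early times, and 917 to 1009 at the late times, and the erythrocyte sum ranged over 1458 to 3758. Of 10 vascular endothelial markers, 2, 5, 3, and 4 were called down-regulated from 2 to 24 hr and 1 up-regulated at 12 hr. The part of any of these cells in the members' values was not tested.

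Other probe sets of the member genes were on the same arrays and had not met both thresholds. There were 65 of them, for 40 genes, and 42 had an early mean above and a late mean below 0 hr, as had 15.5% of all probe sets with 1 symbol. Their medians were 0.22 and −0.30. Of the 28 that were brighter than the median probe set, 20 had this course. Another 4 had an early mean below and a late mean above 0 hr, by small amounts that reached at most −0.29 and 0.049. Rpl7, a ribosomal protein gene, shows the contrast, since its member probe set lay 0.75 above and 0.65 below 0 hr (−0.65) while the other was flat, at −0.0029 and 0.039. For Cdadc1 another probe set was low in both phases, at −0.75 and −0.67. Different probe sets can read different transcript forms, so values of Rpl7, Cdadc1, Sulf1, Cbfb, and Als2cl hold for the probe set and not for the gene. The same applies to Tet3, Ate1, Sema6a, and Trim47, of which another probe set was flat or did not keep to both directions. This list of genes is not complete.

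**Figure D5:**
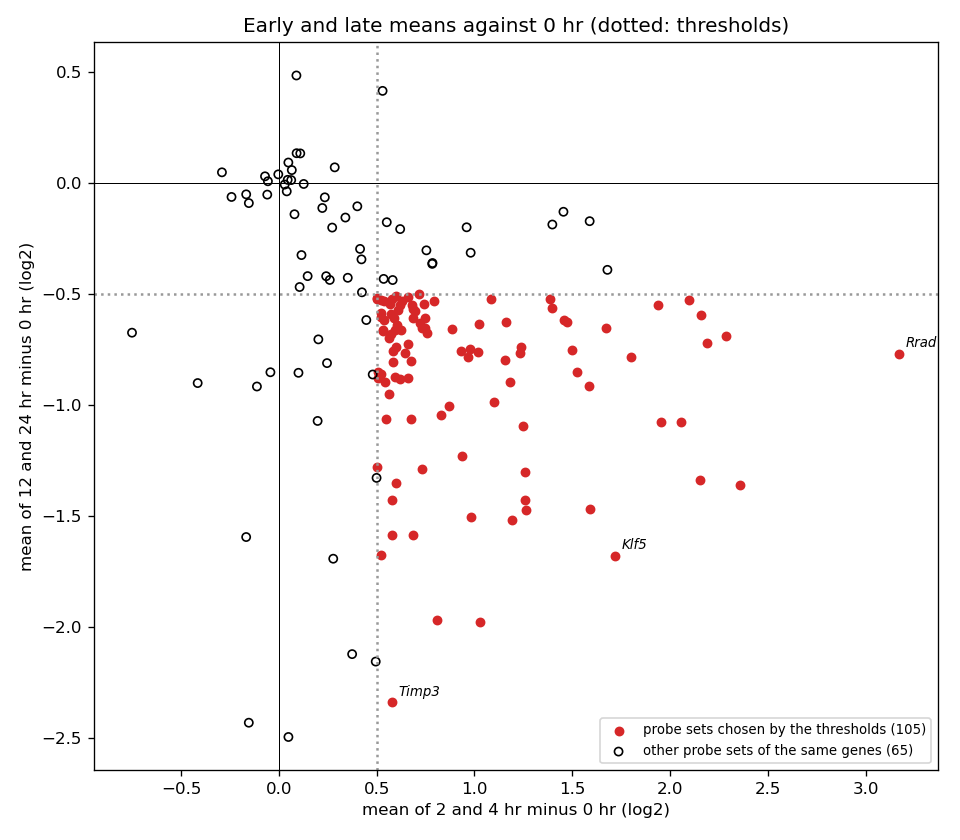
Mean of 2 and 4 hr minus 0 hr (horizontal) against mean of 12 and 24 hr minus 0 hr (vertical), in log2 units, for the 105 chosen probe sets (filled) and the 65 other probe sets of the same genes (open), with the thresholds dotted. The chosen ones fill the lower right by construction, with Rrad farthest right at 3.17 and Timp3 lowest at −2.34, and 42 of the open ones also lie right of 0 and below 0.

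At the thresholds, Natd1 and Septin7 were just inside with early means of 0.50 and 0.50, and Scrn1 and Glis2 with late means of −0.50 and −0.51. Just outside were a second probe set of Tcf7l2 and Elavl2, with early means of 0.4996 and 0.4991, and Sun2 and Cul4b, with late means of −0.49 and −0.49. Sun2 had an early mean of 1.11 and missed only through its late value. The number of members was 185 with thresholds of 0.4 and 28 with thresholds of 0.75. It was 36 when the mean of each time had to pass 0.5 on its own. Further probe sets met both thresholds without standing for 1 named gene. There were 49 of 9780 with no symbol and 5 of 436 with several.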

How the data were processed

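The deposited intensity values had been normalized by RMA (robust multichip average), per the study's methods, with a version not given in the sources used here, and their range shows a linear scale. Here each value was converted to log2 without rescaling, and 57 array controls were set apart. The paper names a smaller array type than the 31042 probe sets fit. Symbols came from the platform annotation and were matched to RefSeq (GRCr8).

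In R 4.3.3 with limma 3.58.1, a linear model with a mean for every time was fitted on all 10 arrays (5 residual degrees of freedom). Calls needed p under 0.05 after Benjamini-Hochberg adjustment across the 31042 probe sets. The fit was tested on simulated data. The 2 arrays per time point limit the precision, and p-values measure only the spread between such pairs. A time point left with 1 array was assumed to vary like the others.

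The members and lists were chosen with earlier results of these data known. Named genes are those with the largest margins, early rises, or late falls, those called in a step, those in a list or with several member probe sets, and those next to a threshold. Others are named by role. List genes were read on their brightest probe set with 1 symbol. Figures used Python 3.11.15 and matplotlib 3.10.9.

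Alternatives were other thresholds, quantile normalization, median centring, a filter on dim probe sets, unadjusted p, the methods' analysis of variance, a fit of only the arrays of a step, a trended robust prior, array quality weights, a fold minimum, a replicate block, each array left out in turn, and promoters of genes with 1 start. A crossed block was chosen after seeing the data.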

Additional observations from a re-analysis of the deposited data

Results flagged for a closer look

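Members whose difference from 0 hr was not the same at both times of a phase stand out, since the test of that difference was passed. Between 2 and 4 hr, Als2cl was higher at 4 hr by 1.03 and Magi3 by 0.73. H1f2 (−1.09), Zbtb38 (−0.96), Pmepa1 (−0.89), Ptpn1 (−0.80), Zfp36l2 (−0.67), and Sulf1 (−0.65) were lower at 4 hr. Between 12 and 24 hr, Mx1 (−3.83), Sting1 (−1.45), Dab2 (−1.36), Zfp36l2 (−1.14), Arhgap8 (−1.08), and Cx3cl1 (−1.06) were lower at 24 hr. All are log2 differences from 2 arrays per time. The 24 hr arrays of Mx1 differ from each other by more than those of the others, at 7.06 and 5.16.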

How the results depend on the processing

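The 105 members became 185 with thresholds of 0.4, 28 with 0.75, and 36 when each time mean had to pass 0.5, and 88 to 126 with 1 array left out. The 8 members called between 2 and 4 hr became 35 by unadjusted p, 4 with array quality weights, 0 with only the arrays of those times, and 4 to 18 with 1 array left out. The 15 called between 12 and 24 hr became 54 by unadjusted p, 31 by the methods' analysis of variance, 36 with array quality weights, 34 with only the arrays of those times, and 3 to 25 with 1 array left out. The counts of called list genes went from 116 to between 68 and 73 at 2 hr, from 110 to between 63 and 71 at 12 hr, and from 105 to between 63 and 69 at 24 hr when either 0 hr array was left out, which leaves fewer arrays in the fit, and from 134 to between 98 and 100 at 4 hr. The causes of the other changes were not tested. Signs were checked for the genes named in a step and for the early and late means of the genes with the largest margins, rises, or falls. None of these differences changed sign, and other named genes were not checked. The balance of calls between 2 and 4 hr, 2 higher and 6 lower, became 5 and 4 by the methods' analysis of variance and 2 and 2 with array quality weights. Between 12 and 24 hr, with 0 higher and 15 lower, it became 8 and 28 with array quality weights and 7 and 24 by the analysis of variance. Deviations of equal replicate numbers correlated between 2 and 4 hr (r = 0.33), and r lay between −0.15 and −0.0030 otherwise. The main fit had no replicate block, so it did not account for the correlation between 2 and 4 hr. Over the members alone r was 0.61 between 2 and 4 hr, 0.32 between 0 and 12 hr, 0.19 between 0 and 24 hr, and −0.28 to 0.014 otherwise. With the replicate number as a block, 10 and 17 members were called in the 2 steps, against 3.20 and 3.78% of all probe sets. With the numbers crossed at 24 hr, 20 were called in the late step, against 4.48% of all. For single genes named in a step, 233 alternative values kept the call and 53 lost it. Early and late means were recomputed for the genes with the largest margins, early rises, or late falls. Of these values, 396 moved by no more than the replicate spread and 12 by more. With 1 array left out, the early mean went down to 0.26 for Timp3 and 0.35 for Dab2, and the late mean to −0.12 for Mx1, −0.44 for Plet1, and −0.47 for Krt19, all short of the thresholds, and that of Gnb3 to −0.82. Quantile normalization, median centring, the filter on dim probe sets, the trended prior, and the fold minimum kept the member counts of both steps within 1.5 times. The counts of list genes were not recomputed under these settings.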
